A study of Homo sapiens with 10 samples.

Results

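The genes described here are 45 autophagy and mitophagy genes, taken from a list and matched by Ensembl ID, in the insulin-producing human beta cell line EndoC-βH1, which is clonal. All 45 were found among the 26346 genes of the deposited files. The study compared 5 preparations given a control siRNA with 5 given an siRNA against SRp55, labelled SRpP55 KD (siSR#2). The titles of all 10 libraries also hold the word exposed, and they do not say to what. SRp55, the product of SRSF6, is a splicing factor of the serine/arginine-rich family, and per its title the study dealt with splicing that depends on it in beta cells. All 10 libraries come from 1 cell line, and the 5 SRp55 siRNA preparations received the same siRNA, so effects of the knockdown and of that siRNA's sequence cannot be told apart. The labels give no genotype beyond the cell line and no time after transfection.

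In autophagy, a cup-shaped membrane, the phagophore, grows around cytoplasm, closes into an autophagosome and fuses with a lysosome. The ULK complex starts the process, the class III phosphatidylinositol 3-kinase (PI3K) complex marks the membrane with a lipid, ATG9A, ATG2 proteins and VMP1 supply lipid, and 2 ubiquitin-like systems attach ATG8 proteins (LC3 and GABARAP) to it. Mitophagy is the removal of mitochondria by this route, either through receptors in the outer mitochondrial membrane (BNIP3, BNIP3L, FUNDC1) or through the kinase PINK1, which recruits ubiquitin-binding cargo receptors. Beta cells depend on mitochondrial metabolism for insulin secretion, and mitophagy is a known part of mitochondrial quality control in them.

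Reads assigned to transcripts came to 61.9 to 159 M in control and 94.7 to 190 M in SRp55 siRNA libraries (M, 10 to the power 6). The lowest member, GABARAPL1, averaged 1.16 RPKM (reads per kilobase of transcript and 10 to the power 6 reads) in control libraries. The siRNA target SRSF6 had a mean RPKM of 98.2 ± 3.24 with the control siRNA and 24.9 ± 3.78 with the SRp55 siRNA (SD, n = 5), a log2 fold change of -2.08 (limma adjusted p = 2.0e-05), in the direction of the labels. All 15 beta cell markers checked reached a mean of 0.5 RPKM. Of the markers of other cells, 3 of 6 other islet, 2 of 7 acinar and duct and 2 of 9 mesenchymal, endothelial and immune genes did so, and PPY, PRSS1, CELA3A, PNLIP and CDH5 were listed at 0 in every library. The summed level of the acinar and duct list was 36.4 to 53.8 RPKM with the control siRNA and 41.6 to 97.7 RPKM with the SRp55 siRNA, and its part in the results was not tested.

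Gene levels were compared as the sum of a gene's transcript RPKM with limma, a linear model fitted across the 13630 genes whose RPKM averaged 0.5 or more. Fold changes are on the log2(RPKM + 0.5) scale, SRp55 siRNA over control siRNA, relative to the median tested gene, which itself moved by 0.11. The adjusted p-values refer to the difference before that shift is taken off. All 45 members passed the filter, and the list as a whole lay close to the median gene. Its median log2 fold change was -0.03, against 0 over all genes tested, with 21 members above and 24 below the median gene. No member rose at an adjusted p under 0.05, against 3.76% of all genes tested, 1 member fell (FYCO1), against 1.25%, and 44 did not pass. Before adjustment, 10 of the 45 (22.2%) had a p under 0.05, against 21.9% of all genes. RPKM values of the groups did not overlap for 3 members, FYCO1, NBR1 and ATG4A, or 6.67% of the list against 7.92% of all genes tested. In bulk RNA, fewer cells that express a gene and less RNA per cell cannot be told apart.

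The deposited files also give the estimated reads behind each RPKM. Summed per gene and divided by the assigned reads of the library, they give a second measure, RPM (reads per 10 to the power 6 assigned reads), that does not divide by transcript length. In RPKM, a read on a short transcript counts for more than a read on a long transcript. On this second measure 1 member rose (VMP1), against 7.46% of the 14299 genes tested, and 4 fell (BNIP3L, PINK1, PIK3C3 and ATG4B), against 9.67%. The groups did not overlap in RPM for 4 members, BNIP3L, PINK1, PIK3C3 and VMP1, or 8.89% against 13.8% of all genes. In RPM the shares of members called, 2.22% and 8.89%, were below those of all genes. The spread between control libraries was smaller in reads than in RPKM for 42 of 45 members: the median coefficient of variation was 8.90% in RPM and 18.9% in RPKM. Over all genes tested it was 11.3% and 18%.

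**Figure D1:**
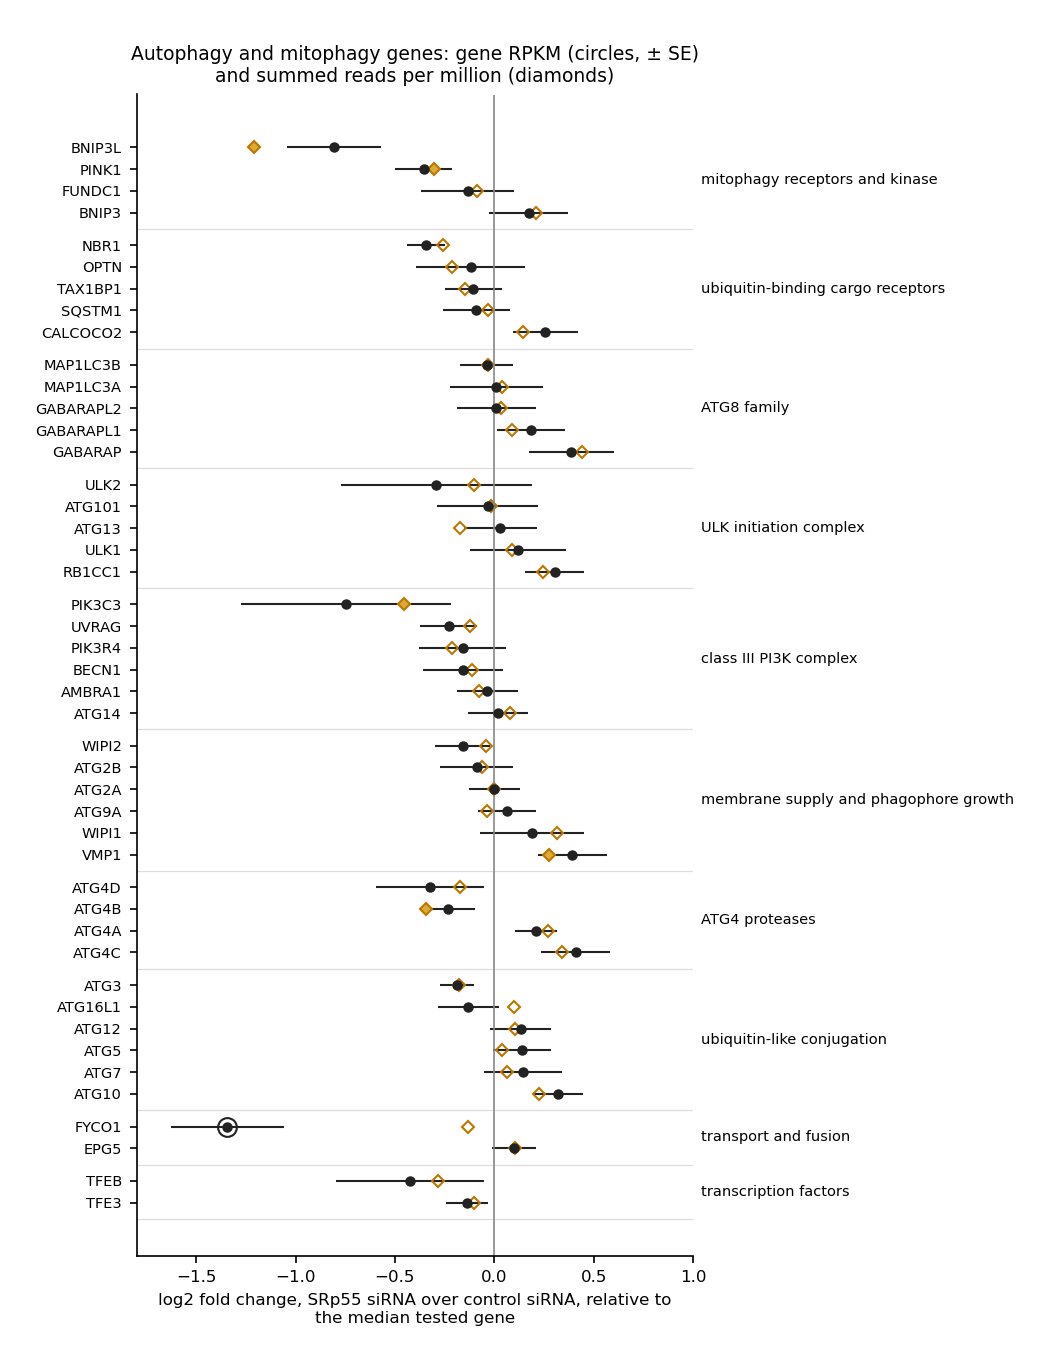
Log2 fold change of the 45 members by role, SRp55 siRNA over control siRNA (n = 5 each), relative to the median tested gene: circles give gene RPKM with the standard error, diamonds summed reads (RPM). The large ring marks FYCO1, the only member with an adjusted p under 0.05 in RPKM, filled diamonds mark the 5 members under 0.05 in reads, and in RPKM all members but BNIP3L, PIK3C3 and FYCO1 lie within 0.5 of the median gene.

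Equal replicate numbers behaved as pairs, and a fit with the replicate as a block called more genes. With the block, 5 members rose in RPKM (ATG10, ATG4A, ATG4C, RB1CC1 and VMP1), or 11.1% against 9.39% of all genes, and 2 fell (BNIP3L and FYCO1), or 4.44% against 3.7%. With the block on RPM, a setting added after the data were seen, 7 rose (15.6%, against 15.9% of all genes): GABARAP and WIPI1 (limma adjusted p = 0.025 and 0.023) and the same 5 as in RPKM. With it 9 fell (20%, against 20.3%): BNIP3L, PINK1, PIK3C3 and ATG4B, which also fell in reads without the block, and NBR1, ATG13, PIK3R4, ATG3 and TFEB (adjusted p 0.0095 to 0.048). Below, a member is said to pass or not to pass in the fits without the block unless the block is named. ATG10, ATG4A, ATG4C, RB1CC1, VMP1 and BNIP3L were called with the block on both measures, in the same direction, and FYCO1 in RPKM only. ATG10, ATG4A, ATG4C, RB1CC1 and VMP1 were higher in RPKM in all 5 pairs, but so were ATG14, ATG9A, ATG5, ATG12 and EPG5. BNIP3L, PINK1, NBR1, ATG3 and FYCO1 were lower in all 5. These counts use RPKM before the shift of the median gene is taken off, and their share over all genes was not computed.

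Among the mitophagy receptors, BNIP3L (ENSG00000104765.10, chromosome 8, 26240414 to 26363152, GRCh37) showed the largest change in reads. BNIP3L, also called NIX, is an outer mitochondrial membrane receptor that binds LC3 and GABARAP proteins. Its RPM was 133, 132, 132, 149 and 121 in control replicates 1 to 5 and 49.4, 60.9, 61.1, 85.0 and 37.6 in SRp55 siRNA replicates 1 to 5. Every SRp55 siRNA library lay below every control library. The group means were 133 ± 10.1 and 58.8 ± 17.6 (SD, n = 5), a 2.27-fold fall, with a log2 fold change of -1.21 (limma adjusted p = 0.00059). Leaving out each library in turn, also added after the data were seen, moved that value between -1.35 and -1.05, with adjusted p at most 0.0024.

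In RPKM, BNIP3L stood at 50.9, 46.8, 44, 75.2 and 38.2 in the control libraries and at 30.7, 32.7, 29.8, 46.4 and 18.5 in the SRp55 siRNA libraries. The SRp55 library of each replicate number was below its control library in 5 of 5 pairs, but the groups overlapped. The means were 51.0 ± 14.3 and 31.6 ± 9.95 RPKM (SD, n = 5). The log2 fold change was -0.81 (SE 0.24), with a limma adjusted p of 0.118, which did not pass. The adjusted p was 0.0127 with the replicate block and 0.0245 with median-of-ratios scaling, a setting in which no member rose (3.02% of 13620 genes did) and BNIP3L and FYCO1 fell (3.72% of genes did).

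BNIP3L was also the only member called for transcript usage, which is the share of the gene's RPKM sum that falls to a given transcript. Its limma diffSplice F test gave an adjusted p of 2.1e-06, and 1 of 41 members tested was called, against 0.343% of the 9915 genes tested. The transcript that fell was ENST00000380629, the coding transcript with the long last exon of 2764 bases. Its RPKM was 26.1, 22.9, 24.8, 26.0 and 20.7 in control replicates 1 to 5, and 6.79, 8.08, 9.22, 12.6 and 4.44 in SRp55 siRNA replicates 1 to 5. The groups did not overlap, and the means of 24.1 ± 2.28 and 8.22 ± 3.02 RPKM (SD, n = 5) differ 2.93-fold. Its usage went from 49.1% ± 8.62 to 25.8% ± 3.40, a shift of -23.3 percentage points (exact two-sided permutation p = 0.00794, the smallest that 5 against 5 unpaired libraries can give). The permutation p-values here and below do not use the pairing of equal replicate numbers.

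In RPKM, the other 3 BNIP3L transcripts tested differed from it: 1 was higher in SRp55 siRNA libraries, and 2 had lower means with groups that overlapped. ENST00000518611, a coding transcript with an alternative first exon that ends earlier within the last exon, was near 0 in control libraries (0, 0, 0.123, 0 and 0.534 RPKM) and at 5.20, 3.29, 2.52, 4.64 and 1.63 RPKM in SRp55 siRNA libraries. Its usage was 0.335% ± 0.605 in control and 10.8% ± 3.46 in SRp55 siRNA libraries (SD, n = 5; transcript adjusted p from limma diffSplice = 1.0e-06), and its estimated reads were at most 131 in any control library and 336 to 1317 in SRp55 siRNA libraries. ENST00000523949, whose last exon lies 92.2 kb further along the chromosome, was at 20.2 ± 9.96 and 15.6 ± 5.02 RPKM, and its change relative to the gene's other transcripts did not pass (diffSplice adjusted p = 0.859). ENST00000520077, annotated as a target of nonsense-mediated decay, was at 4.02 ± 2.58 and 3.31 ± 0.769 RPKM and did not pass that test either. As shares of the gene's estimated reads, both were higher on average in SRp55 siRNA libraries. ENST00000523949 went from 15.5% ± 5.01 to 26.5% ± 0.706 of reads, without overlap (exact two-sided permutation p = 0.0079). ENST00000520077 went from 3.22% ± 1.52 to 6.18% ± 1.39 of reads, with overlap (exact two-sided permutation p = 0.024).

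These transcript values have limits of annotation and counting. The 330-base last exon of ENST00000523949 lies wholly inside the last exon of PNMA2 on the opposite strand, and whether strand was used in counting is not given in the sources used here. PNMA2 was at 54.2 ± 4.18 and 49.2 ± 4.99 RPKM (SD, n = 5; log2 fold change -0.25, limma adjusted p = 0.477). In reads PNMA2 fell (log2 fold change -0.24, limma adjusted p = 0.022). Its part in the BNIP3L values was not tested. The usage call was lost with reads in place of RPKM (adjusted p = 0.177) and without SRp55 siRNA replicate 1 (adjusted p = 0.448). In both cases ENST00000518611 dropped under the minimum of 5% usage and 3 transcripts were tested rather than 4, while the shift of ENST00000380629 remained at -22.8 and -22.4 points.

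**Figure D2:**
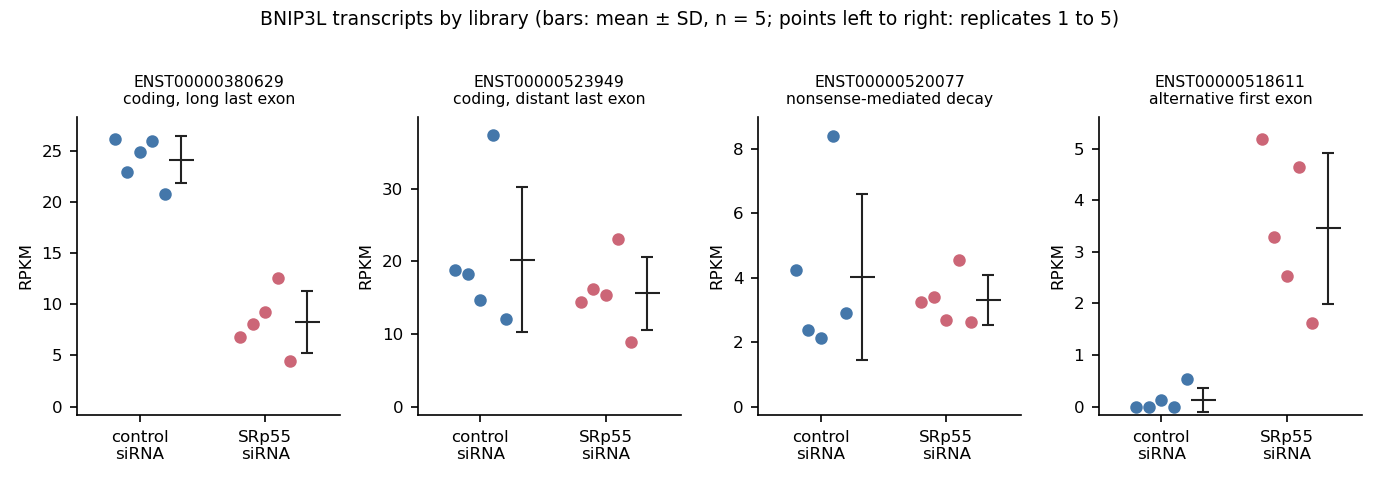
RPKM of the 4 tested BNIP3L transcripts in each library (points, replicates 1 to 5 from left to right within a group, with the mean and SD beside them, n = 5). ENST00000380629 lies between 20.7 and 26.1 RPKM with the control siRNA and between 4.44 and 12.6 RPKM with the SRp55 siRNA, while ENST00000518611 is at most 0.534 RPKM in control libraries; the y axes differ between panels.

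The other mitophagy genes moved less. PINK1, the kinase that accumulates on damaged mitochondria and phosphorylates ubiquitin, was at 105, 90.7, 92.8, 91.1 and 85.6 RPM in control and 80.7, 68.4, 73.1, 77.9 and 73.3 in SRp55 siRNA libraries, with no overlap. Its log2 fold change was -0.30 in reads (limma adjusted p = 0.012). In RPKM it was at 38.8, 29.8, 32.3, 34.5 and 26.7 in control and 32.8, 21.7, 27.9, 31.0 and 23.4 in SRp55 siRNA libraries, a log2 fold change of -0.35 that did not pass (adjusted p = 0.355). Exons of the antisense gene PINK1-AS cover 39.5% of the exonic bases of PINK1 in GENCODE 44, so reads of these genes cannot be told apart without strand. PINK1-AS was not found among the genes of the deposited files, and its part in the PINK1 values was not tested. BNIP3, the paralogue of BNIP3L, had means of 48.9 ± 2.37 and 62.5 ± 23.7 RPKM and a log2 fold change of 0.17 (adjusted p = 0.443). SRp55 siRNA replicate 1 stood at 103 RPKM, the other 4 at 43.9 to 62.2 RPKM, and without it the log2 fold change of BNIP3 was 0.017. FUNDC1, another outer membrane receptor, had means of 25.2 ± 2.35 and 26.4 ± 12.2 RPKM and a log2 fold change of -0.13 (adjusted p = 0.964). Neither passed the test. The wide SRp55 siRNA spread of FUNDC1 came with the same replicate, at 47.6 RPKM, the other 4 libraries being at 16.1 to 24.5 RPKM. In RPM those 4 were at 24.5 to 31.0, below the control range of 32.0 to 38.1. With that replicate left out, a setting added after the data were seen, FUNDC1 was called in reads.

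FYCO1 (ENSG00000163820.10, chromosome 3, 45959396 to 46037316, GRCh37) encodes an adaptor that links LC3 and RAB7 on autophagosomes to kinesin motors. Its gene RPKM was 3.50, 14.4, 10.01, 9.19 and 6.35 in control replicates 1 to 5 and 3.02, 3.41, 2.88, 2.78 and 3.26 in SRp55 siRNA replicates 1 to 5. All SRp55 siRNA libraries lay below all control libraries, although control replicate 1 was close to them. The means were 8.68 ± 4.08 and 3.07 ± 0.261 RPKM (SD, n = 5), with a log2 fold change of -1.34 (SE 0.29, limma adjusted p = 0.036). In RPM the gene was at 26.9 ± 1.89 in control and 24.4 ± 3.43 in SRp55 siRNA libraries, the groups overlapped, and the log2 fold change of -0.13 did not pass (adjusted p = 0.342). The RPKM call was also lost with no filter on low genes (adjusted p = 0.055) and when any library other than control replicate 1 or 4 was left out (adjusted p 0.050 to 0.082).

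The RPKM difference lay in a single short transcript. ENST00000471739, annotated as retained intron and 545 bases long, had RPKM values of 0.131, 12.03, 7.21, 6.45 and 3.61 in control replicates 1 to 5 and 0.121, 0.326, 0.384, 0 and 0 in SRp55 siRNA replicates 1 to 5. It was thus as low in control replicate 1 as in the SRp55 siRNA libraries. The estimated reads behind these values were 8 in control replicate 1, 358 to 615 in the other 4 control libraries and at most 25 in SRp55 siRNA libraries. Its mean usage of FYCO1 was 57.3% ± 31.4 in control and 5.35% ± 5.93 in SRp55 siRNA libraries, a shift of -52.0 points (transcript adjusted p from limma diffSplice = 0.038; gene F test adjusted p = 0.0501, not called). Leaving out control replicate 1 takes away the control library in which this transcript was low. The gene F test then gave an adjusted p of 8.9e-06. FYCO1 was not called for usage with any other single library left out.

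The full-length coding transcript ENST00000296137 held on average 60.7% ± 16.5 of FYCO1 reads in control libraries (38.3% to 78.0%). In SRp55 siRNA libraries it held 80.5% ± 7.51 (SD, n = 5). Its RPKM was 1.89, 0.936, 1.23, 1.81 and 2.05 in control and 1.93, 1.90, 2.26, 1.77 and 2.09 in SRp55 siRNA libraries, so the groups overlapped and no fall was seen in it. The shorter coding transcript ENST00000433878 was at 0.861 ± 0.217 and 0.672 ± 0.354 RPKM (SD, n = 5). ENST00000535325, not in GENCODE 44, was at 0.350 ± 0.272 and 0.243 ± 0.0581 RPKM and was too low to be tested.

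The sequence where ENST00000471739 leaves the coding transcript is shown because the RPKM fall of FYCO1 rests on it. In GENCODE 44 its last exon runs on past the 5′ splice site of a coding exon into the intron. The printed stretch (GRCh38, chr3:45984581-45984880, minus strand, 5′ to 3′) holds the last 25 bases of the exon and 275 retained bases, and the capitals mark the last 3 exon and the first 6 intron bases around the 5′ splice site, which begins with GT.
FYCO1 retained segment: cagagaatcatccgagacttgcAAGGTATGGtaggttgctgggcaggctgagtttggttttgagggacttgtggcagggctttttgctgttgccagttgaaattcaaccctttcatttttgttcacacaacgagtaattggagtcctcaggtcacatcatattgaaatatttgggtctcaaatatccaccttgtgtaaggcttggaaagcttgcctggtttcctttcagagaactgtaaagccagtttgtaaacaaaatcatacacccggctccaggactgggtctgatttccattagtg

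**Figure D3:**
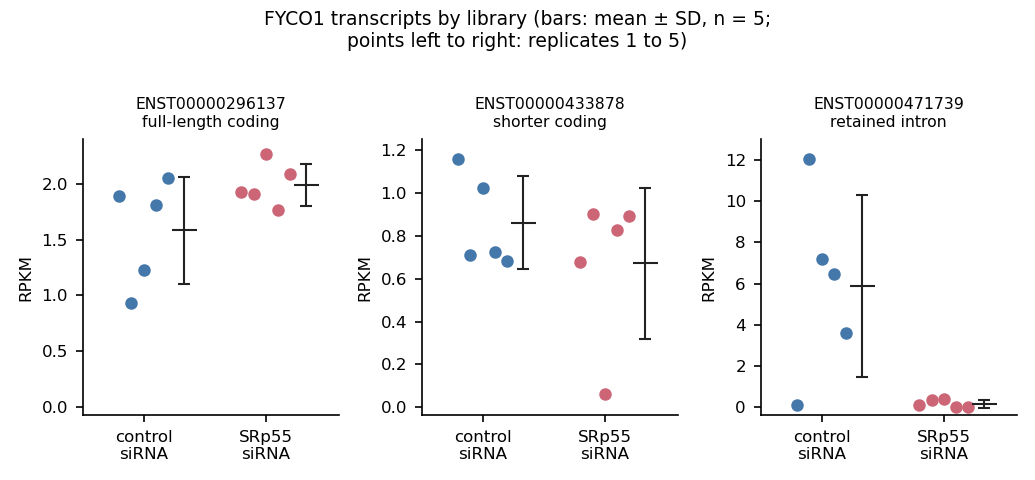
RPKM of 3 FYCO1 transcripts in each library (points, replicates 1 to 5 from left to right within a group, with the mean and SD beside them, n = 5). The coding transcripts overlap between groups, while the retained-intron transcript reaches 12.03 RPKM with the control siRNA, is 0.131 RPKM in control replicate 1 and stays at or under 0.384 RPKM with the SRp55 siRNA; the y axes differ between panels.

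EPG5, a tether in the fusion of autophagosomes with lysosomes, was at 7.15 ± 0.812 and 8.33 ± 0.867 RPKM (SD, n = 5). Its log2 fold change of 0.10 did not pass (limma adjusted p = 0.309).

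None of the 5 ubiquitin-binding cargo receptors, which bridge ubiquitin-tagged cargo and ATG8 proteins, passed the test in RPKM or in reads. CALCOCO2 (NDP52) was at 77.7 ± 10.5 and 101 ± 20.8 RPKM (SD, n = 5; log2 fold change 0.26, limma adjusted p = 0.222). SQSTM1 (p62) was at 71.8 ± 13.5 and 72.8 ± 15.2 RPKM (-0.09, adjusted p = 0.963), and OPTN (optineurin) at 59.2 ± 18.5 and 59.2 ± 19.0 RPKM (-0.12, adjusted p = 0.988). NBR1, another such receptor, spanned 32.7 to 40.3 RPKM in the control group and 28.8 to 32.0 RPKM in the SRp55 siRNA group, with no overlap. Its log2 fold change was -0.34 in RPKM (adjusted p = 0.183) and -0.26 in reads (adjusted p = 0.069), and neither passed. NBR1 passed in reads with the replicate block (adjusted p = 0.014).

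The ATG8 family, the ubiquitin-like proteins that are joined to lipid on the autophagosome membrane, held both the highest and the lowest member. GABARAP was at 311 ± 108 and 426 ± 67.0 RPKM (SD, n = 5), GABARAPL2 at 113 ± 13.8 and 127 ± 43.0 RPKM, and MAP1LC3A at 43.1 ± 16.3 and 44.8 ± 7.52 RPKM. GABARAPL1 was at 1.16 ± 0.381 and 1.52 ± 0.365 RPKM. None of the 5 passed, and GABARAP had the largest log2 fold change, 0.39 in RPKM (adjusted p = 0.211). In reads it was 0.44 (adjusted p = 0.064, and 0.025 with the replicate block). Exons of another gene, ENSG00000262526, cover 35.4% of the exonic bases of GABARAP on the same strand in GENCODE 44. What this overlap does to the GABARAP level was not tested.

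The ULK complex, which starts autophagosome formation, had no member called in RPKM or in reads. ATG13, a regulatory subunit, was at 37.7 ± 5.82 and 42.4 ± 11.2 RPKM (SD, n = 5), ATG101, its partner, at 32.5 ± 13.5 and 33.1 ± 8.66 RPKM, and the kinase ULK1 at 25.3 ± 8.60 and 29.8 ± 10.5 RPKM. The log2 fold change of ATG13 was 0.03 in RPKM and -0.17 in reads, where it passed with the replicate block (adjusted p = 0.013). RB1CC1 (FIP200), the scaffold subunit, was higher in the SRp55 siRNA library of all 5 pairs. Its values were 15.7 ± 2.07 and 21.2 ± 3.79 RPKM, with a log2 fold change of 0.30 (adjusted p = 0.136, and 0.041 with the replicate block).

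In the class III PI3K complex, 5 of 6 members lay below the median gene and none passed in RPKM. PIK3C3 (VPS34), the lipid kinase itself, was lower in RPM in every SRp55 siRNA library, at 65.9, 81.1, 82.5, 79.4 and 63.7, than in any control library, at 116, 108, 111, 87.7 and 92.6. Its log2 fold change in reads was -0.45 (limma adjusted p = 0.0095). In RPKM it was at 62.0, 17.8, 10.5, 13.3 and 8.41 in control and 7.64, 10.8, 27.0, 10.7 and 5.52 in SRp55 siRNA libraries, where control replicate 1 and SRp55 siRNA replicate 3 stand far above the rest and the difference did not pass (-0.75, adjusted p = 0.520). The coding transcript ENST00000262039, 9443 bases long, was at 5.97 ± 1.77 and 5.07 ± 1.31 RPKM. BECN1 (Beclin 1), the regulatory subunit, was at 36.7 ± 8.18 and 35.9 ± 9.87 RPKM and PIK3R4 (VPS15) at 17.5 ± 5.58 and 16.7 ± 4.31 RPKM, and neither passed; PIK3R4 fell in reads with the replicate block (adjusted p = 0.0095).

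Among the 6 genes of membrane supply and phagophore growth, VMP1, an endoplasmic reticulum membrane protein that acts as a lipid scramblase, was the member that rose in reads. It was at 88.9, 89.9, 91.9, 90.0 and 83.6 RPM in control and 120, 105, 107, 106 and 95.4 in SRp55 siRNA libraries, without overlap, a log2 fold change of 0.27 (limma adjusted p = 0.023). In RPKM it was at 66.9, 46.9, 59.4, 74.3 and 43.2 in control and 94.5, 82.7, 81.3, 88.7 and 61.0 in SRp55 siRNA libraries. The RPKM groups overlapped, all 5 pairs were higher, and the log2 fold change of 0.39 did not pass (adjusted p = 0.127, and 0.024 with the replicate block). The call in reads was lost without control replicate 5 (adjusted p = 0.062) and without SRp55 siRNA replicate 3 (adjusted p = 0.051). ATG9A, the lipid scramblase of ATG9 vesicles, was at 36.6 ± 5.53 and 41.4 ± 7.34 RPKM and WIPI2, which reads the PI3K lipid, at 18.4 ± 2.79 and 17.7 ± 2.79 RPKM (SD, n = 5), and neither passed. Exons of ENSG00000284820 cover 38.8% of the exonic bases of ATG9A on the same strand in GENCODE 44. What this overlap does to the ATG9A level was not tested.

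The 4 ATG4 proteases, which trim ATG8 proteins before and after they are joined to lipid, went different ways. ATG4B, the main family member for LC3, was at 110, 97.6, 86.9, 105 and 107 RPM in control and 78.8, 76.7, 74.2, 76.7 and 87.8 in SRp55 siRNA libraries, where only SRp55 siRNA replicate 5 reached the lowest control library. Its log2 fold change in reads was -0.35 (limma adjusted p = 0.0094). In RPKM it was at 62.8, 55.2, 43.7, 69.4 and 47.1 in control and 51.8, 54.0, 47.1, 53.4 and 45.7 in SRp55 siRNA libraries and did not pass (-0.23, adjusted p = 0.644). Its coding transcript ENST00000404914 had RPKM values of 11.3, 10.2, 9.26, 10.6 and 10.1 in control and 4.57, 4.25, 3.81, 5.48 and 4.87 in SRp55 siRNA libraries, without overlap. The usage of that transcript went from 18.9% ± 2.56 to 9.14% ± 1.27, a shift of -9.75 points (exact two-sided permutation p = 0.00794, not adjusted for the number of transcripts examined). ATG4B was not called for usage: the shift was under 10 points, and its limma diffSplice F test was far from passing (adjusted p = 0.9999). Over all its coding transcripts in GENCODE 44, the share of ATG4B RPKM went from 29.1% ± 2.42 to 18.6% ± 0.932. ATG4B was the only member whose coding shares did not overlap between groups. The share of all genes for which this holds was not computed, so it is not known whether this is unusual. Retained-intron transcripts held 55.4% of its RPKM in control and 61.7% in SRp55 siRNA libraries, with overlap.

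ATG4A and ATG4C were higher in the SRp55 siRNA library of all 5 pairs. ATG4A spanned 7.84 to 10.4 RPKM with the control siRNA and 10.4 to 12.9 RPKM with the SRp55 siRNA, just short of overlap (log2 fold change 0.21, adjusted p = 0.109), and ATG4C at 8.38 ± 1.48 and 12.3 ± 2.80 RPKM (0.41, adjusted p = 0.113). They passed in RPKM with the replicate block (adjusted p = 0.036 and 0.015). In reads they passed with the block (0.012 and 0.011) and, without it, when SRp55 siRNA replicate 1 was left out, and ATG4A also without control replicate 3. ATG4D was at 26.1 ± 10.9 and 21.6 ± 5.96 RPKM (SD, n = 5) and did not pass.

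**Figure D4:**
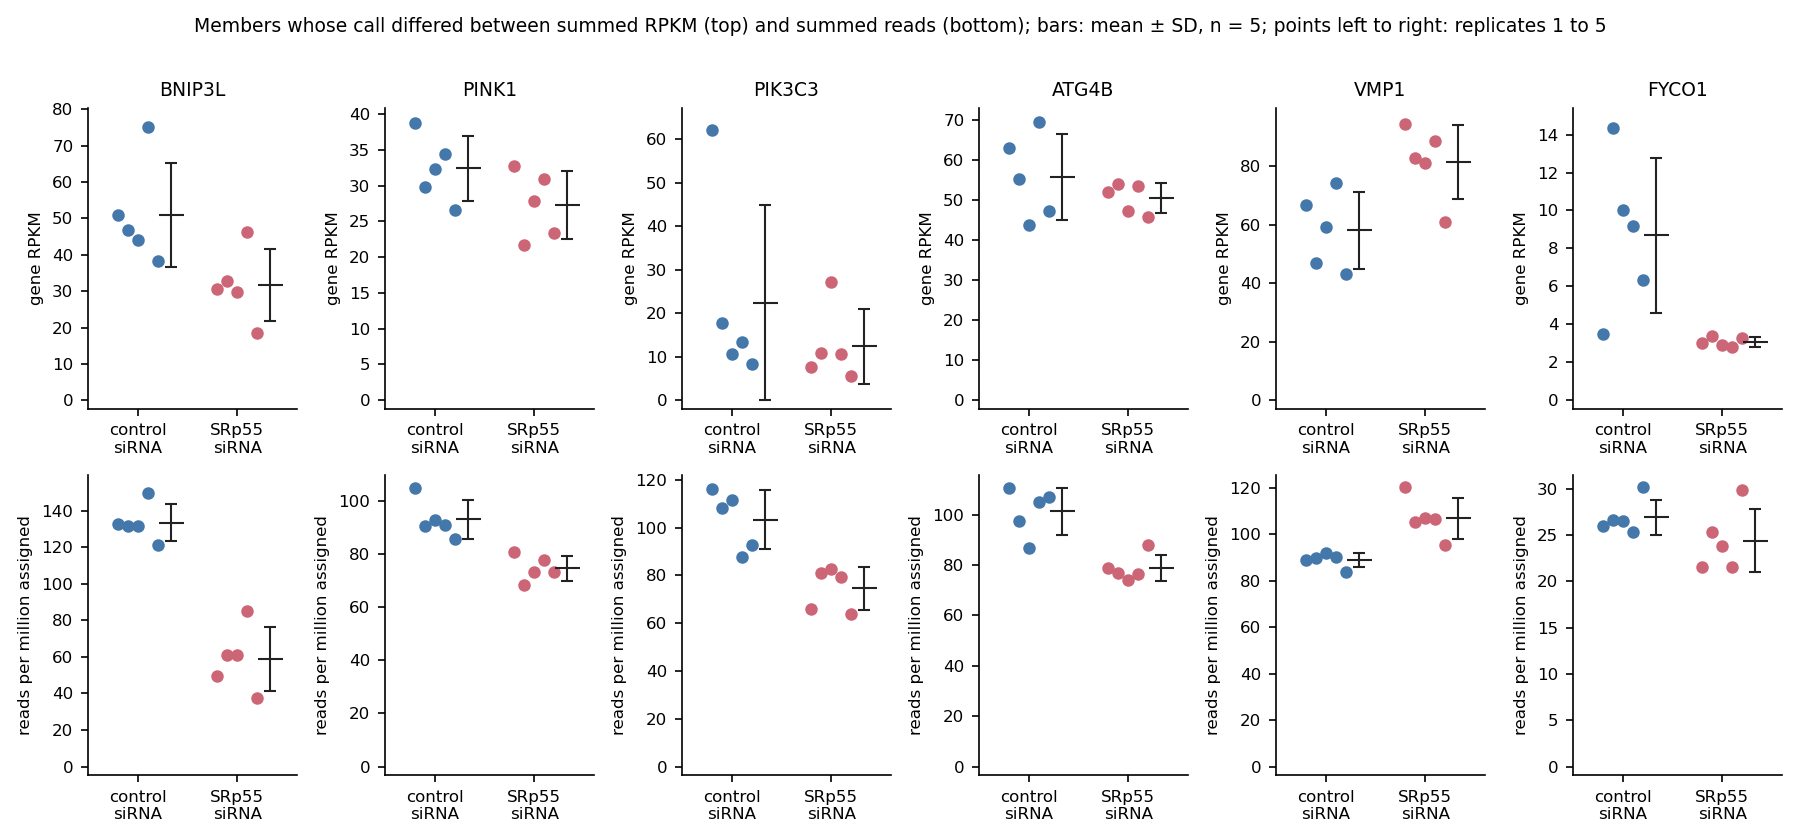
Gene RPKM (top) and RPM (bottom) in each library for the 6 members whose call differed between these measures (points, replicates 1 to 5 from left to right within a group, with the mean and SD beside them, n = 5). BNIP3L, PINK1, PIK3C3 and VMP1 do not overlap between groups in RPM, FYCO1 overlaps in reads but not in RPKM, and single RPKM values stand out, such as PIK3C3 at 62.0 in control replicate 1.

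The 6 genes of ubiquitin-like conjugation attach ATG12 to ATG5 (ATG7, ATG10) and ATG8 proteins to lipid (ATG7, ATG3 and the ATG12, ATG5 and ATG16L1 complex). None passed in RPKM or in reads, and ATG3 fell in reads with the replicate block (adjusted p = 0.017). ATG3 was at 26.7 ± 1.14 and 25.3 ± 1.22 RPKM (SD, n = 5), ATG12 at 26.2 ± 4.60 and 31.0 ± 5.32 RPKM and ATG5 at 21.9 ± 2.77 and 26.3 ± 4.79 RPKM. ATG10, the E2-like enzyme for ATG12, had the smallest p of the group. It was at 9.91 ± 1.47 and 13.5 ± 1.76 RPKM, higher in 5 of 5 pairs, with a log2 fold change of 0.32 (limma adjusted p = 0.080, and 0.021 with the replicate block).

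Both transcription factors of the list, TFEB and TFE3, which drive lysosome and autophagy genes, lay below the median gene and did not pass. TFE3 was at 21.9 ± 2.31 and 21.4 ± 2.04 RPKM and TFEB at 2.64 ± 1.77 and 2.01 ± 1.37 RPKM (SD, n = 5), and TFEB fell in reads with the replicate block (adjusted p = 0.048). Their known binding word contains CACGTG. In RefSeq promoters (GRCh38.p14, 250 bases before to 50 after the start; 38 members matched), CACGTG was found on either strand in 3 of 38 member promoters (7.89%; ATG14, ATG3 and BNIP3) and in 7.43% of all 27305 promoters. The shorter word ACGTG, which CACGTG contains, was found in 28.9% of member and 21.6% of all promoters. These matches are a description of the letters and say nothing of binding.

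The 11 members not described so far (TAX1BP1, MAP1LC3B, ULK2, UVRAG, ATG14, AMBRA1, ATG2A, ATG2B, WIPI1, ATG7 and ATG16L1) averaged from 2.88 RPKM (ATG14) to 35.4 RPKM (TAX1BP1) in control libraries. Their log2 fold changes ran from -0.29 (ULK2) to 0.19 (WIPI1), and none passed (limma adjusted p from 0.488 for ATG7 to 0.992 for TAX1BP1). WIPI1 rose in reads with the replicate block (adjusted p = 0.023).

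Transcript usage of members other than BNIP3L was not called. Of the 45 members, 41 had at least 2 transcripts to test, and BNIP3, ATG14, GABARAPL1 and TFEB did not. A shift of at least 10 points was seen in 10 members. After BNIP3L and FYCO1, the largest were in ATG4A, whose coding transcript ENST00000372232 went from 35.5% ± 22.9 to 58.0% ± 5.99 (adjusted p = 0.738), ATG4D, whose ENST00000588667, annotated as a target of nonsense-mediated decay, went from 5.72% ± 4.42 to 27.6% ± 31.4 (adjusted p = 0.964), and ATG2A, whose ENST00000421419 went from 54.9% ± 26.1 to 35.1% ± 31.6 (SD, n = 5; adjusted p = 0.899). In all 3 the SD of at least 1 group exceeded the shift. The share of RPKM in coding transcripts, over the biotypes of GENCODE 44, had a median over the 45 members of 69.2% in control and 71.3% in SRp55 siRNA libraries. That in retained-intron transcripts had a median of 2.76% and 1.90%.

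A list of 67 other genes of these pathways, with no member among them, was read beside the members. Of the 62 tested, 2 rose in RPKM (3.23%, against 3.76% of all genes), 1 fell (1.61%, against 1.25%) and 59 did not pass, with a median log2 fold change of -0.06. PRKAA1, a catalytic subunit of the energy sensor AMPK, which acts on ULK1, fell from 40.3 ± 4.96 to 25.1 ± 3.80 RPKM (SD, n = 5; log2 fold change -0.79, limma adjusted p = 0.021), while the other catalytic subunit, PRKAA2, rose from 3.36 ± 0.488 to 5.25 ± 0.624 RPKM (0.47, adjusted p = 0.024). MARCHF5, a ubiquitin ligase of the outer mitochondrial membrane, rose from 23.0 ± 3.80 to 34.4 ± 4.33 RPKM (0.47, adjusted p = 0.037). All 3 also passed in reads, in the same direction. In reads, 3 of the 62 rose (4.84%, against 7.46% of all genes) and 10 fell (16.1%, against 9.67%). Those that rose were MARCHF5, PRKAA2 and RUBCN. Those that fell were RAB7A, PRKAA1, BCL2L13, PRKAG2, TOLLIP, PRKAB2, PLEKHM1, DEPTOR, MUL1 and PRKAB1 (limma adjusted p 0.00029 to 0.048). RAB7A, the GTPase that FYCO1 binds, averaged 129 RPKM with the control siRNA and 88.6 RPKM with the SRp55 siRNA, did not pass in RPKM (adjusted p = 0.101) and was lower in 5 of 5 pairs. It passed in RPKM with the replicate block (adjusted p = 0.016) and with median-of-ratios scaling (0.013), and fell in reads (log2 fold change -0.51, adjusted p = 0.00029).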

How the data were processed

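Polyadenylated RNA of 5 control siRNA and 5 SRp55 siRNA preparations of EndoC-βH1 cells, independent per the series' design text, was sequenced on an Illumina HiSeq 2000. The submitters' processing notes name TopHat and the build GRCh37 (hg19). How reads were divided among transcripts, with which annotation and with or without strand is not given in the sources used here. The deposited files list 155130 transcripts with an estimated, often fractional count of reads, a length and an RPKM value, which per the file headers and fields share 1 text field. The deposited RPKM equals the estimated reads divided by length and by 1 total per library (within 1% for 100% of 904448 values). Assigned reads were 82.1% ± 6.82 of that total in control and 87.0% ± 7.24 in SRp55 siRNA libraries, so RPKM carries this difference. Because reads and RPKM share a field, a count model was not run.

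Transcript RPKM was summed per gene and tested with limma 3.58.1 (R 4.3.3, trend and robust options, Benjamini-Hochberg over all genes tested). Usage was tested with diffSplice on transcripts averaging 0.5 RPKM and 5% usage or more. A call needed an adjusted p below 0.05 and a shift of 10 points or more. The pseudocount of 0.5 understates changes of low genes. Symbols, biotypes and exons came from GENCODE 44 (GRCh38) by Ensembl ID. The scripts were tested on simulated data. The members and lists were chosen with earlier results of these data known. All members are given by role: values in every library for those called, BNIP3L, FYCO1 and those whose call differed between RPKM and reads, and of the others up to 3 per role by level, plus members called only with the replicate block or with groups that do not overlap, named after their values were seen.

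Equal replicate numbers were taken as pairs from the data: library deviations from the group mean correlated at 0.128 to 0.414 for equal and at most 0.121 for different numbers over 13630 genes, and 10 of 10 libraries correlated best with their own number. Library pairs of a group correlated at 0.962 to 0.983 in log2 gene RPKM and 0 pairs held identical values.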

Additional observations from a re-analysis of the deposited data

Results flagged for a closer look

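In 12 of 114 groups of 5 libraries checked, 1 library stood apart from the other 4 by Dixon's test at its 95% critical value of 0.71. Chance flags about 1 group in 20. Of the 90 groups of gene RPKM, 11 held such a library.

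In several of these libraries, a transcript that was lower in the group's other libraries held part of the gene's RPKM. PIK3C3 was at 62.0 RPKM in control replicate 1 (others 8.41 to 17.8), where ENST00000597477 held 14.4 RPKM, or 23.2% of the gene, against at most 0.0177 in the other control libraries, with the rest of the excess in further transcripts, and at 27.0 RPKM in SRp55 siRNA replicate 3 (others 5.52 to 10.8). ULK1 was at 40.3 RPKM in control replicate 5 (others 19.2 to 24.6), with ENST00000541761 at 27.0 RPKM against 0.139 to 0.282. ULK2 was at 25.6 RPKM in SRp55 siRNA replicate 5 (others 6.71 to 9.81), with ENST00000580130 at 15.6 RPKM against 0.263 to 1.44, while its RPM was 35.5 against 29.5 to 32.7. BECN1 was at 50.8 RPKM in control replicate 1 (others 30.7 to 36.5), with ENST00000585515 at 14.4 RPKM against 0.819 to 4.97. TFEB was at 4.38 RPKM in SRp55 siRNA replicate 1 (others 0.987 to 1.86), with ENST00000494822 at 1.89 RPKM against at most 0.162. The transcript ENST00000523949 of BNIP3L was at 37.3 RPKM in control replicate 4 (others 12.03 to 18.7).

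In the remaining cases the leading transcript was not new to the library. FUNDC1 was at 47.6 RPKM in SRp55 siRNA replicate 1 (others 16.1 to 24.5), and its RPM was 57.7 against 24.5 to 31.0. ATG13 was at 48.1 RPKM in control replicate 4 (others 34.8 to 35.3), with 101 RPM against 92.0 to 102. ATG14 was at 4.05 RPKM in SRp55 siRNA replicate 1 (others 2.69 to 3.05), and ATG3 at 27.4 RPKM in SRp55 siRNA replicate 3 (others 24.5 to 25.1). TAX1BP1 was at 25.7 RPKM in SRp55 siRNA replicate 5 (others 36.7 to 39.1).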

How the results depend on the processing

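The count of members called for gene expression, 1 in the reported fit, was 0 with no filter on low values, 2 with median-of-ratios size factors, 5 with summed reads, 7 with the replicate block, 0 to 3 with a library left out, 16 with reads and the replicate block together, and 4, 5, 6, 7 or 8 with reads and a library left out. The last 2 settings were chosen after seeing the data. It stayed at 1 with a pseudocount of 0.1 or 1 and with a mean of at least 2 RPKM. The count of members called for usage, 1 as reported, was 2 with a pseudocount of 1 RPKM, 2 with transcripts of at least 0.1 RPKM and 2% usage, 0 with reads in place of RPKM, and 0 to 2 with a library left out. With the replicate block it was 1 (BNIP3L, adjusted p = 9.1e-05, and FYCO1 at 0.085). The fall of SRSF6 was called in every setting run. The count of all genes called was 259 to 1083 with a library left out, against 684.

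Log2 fold changes of 14 of the 45 members, none of them called as reported, changed sign in 44 of 830 values. None of the 44 passed the test, but ATG13, lower in reads, was called lower in reads with the replicate block. The sign changes under median-of-ratios were those of MAP1LC3A (-3.2e-05), GABARAPL2 (-0.00014) and ATG2A (-0.0043), and with no filter MAP1LC3B (0.036), ATG101 (0.043) and AMBRA1 (0.040). With reads they were ATG13 (-0.17), ATG2A (-0.0010), ATG9A (-0.035) and ATG16L1 (0.10), and for ATG2A also a pseudocount of 0.1 (-0.0039) and a mean of at least 2 RPKM (-0.0081). With a library left out, values ran from -0.096 to 0.049 for AMBRA1, -0.14 to 0.13 for ATG101, -0.046 to 0.11 for ATG13, -0.080 to 0.10 for ATG14, -0.047 to 0.043 for ATG2A, -0.22 to 0.0022 for ATG2B, -0.021 to 0.094 for ATG9A, -0.13 to 0.091 for GABARAPL2, -0.10 to 0.12 for MAP1LC3A, -0.084 to 0.010 for MAP1LC3B, -0.26 to 0.036 for OPTN, -0.064 to 0.33 for ULK1 and -0.66 to 0.045 for ULK2. The cause was not tested. All 45 members passed the filter on low values. The split of reads among transcripts was made by the authors, and the files give no error for it.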
